A study of Mus musculus with 7 samples.

Results

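Cystatins and lysosomal cathepsins are here 9 genes, the cysteine protease inhibitors Cst3 and Cstb and the proteases Ctsa, Ctsb, Ctsd, Ctsh, Ctsk, Ctsl and Ctsz, out of 55487 gene identifiers counted in mouse ovary. All 9 were matched by symbol in the GENCODE M21 annotation of mm10, and all 9 were among the 18779 genes with enough counts to be tested. The genes were selected with the measured CNTR and PAMH F3 read counts of these libraries already known, so their difference between the groups is given as a description. Counts of calls among them stand only beside those over all genes. Whole ovaries of C57BL/6J mice were taken at diestrus on postnatal day 60 and sequenced as 3 CNTR and 4 PAMH F3 libraries. CNTR mice were the offspring of dams given PBS. PAMH F3 mice descended over 3 generations from F0 dams given daily human recombinant AMH (0.12 mg/kg) between E16.5 and E18.5 of gestation, with no further AMH in later pregnancies. The labels give these injections as subcutaneous and the methods as intraperitoneal. CNTR mice were themselves the first generation after injection, so that the treatment history and the generation cannot be told apart. The labels do not say whether each library came from a separate mouse, and the spread between libraries is the only error available.

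Cathepsins are proteases of the lysosome, where they break down proteins delivered by endocytosis, autophagy and phagocytosis. Most are cysteine proteases (Ctsb, Ctsh, Ctsk, Ctsl and Ctsz here), while Ctsd is an aspartic and Ctsa a serine protease. Cystatins bind cysteine cathepsins tightly and block them, Cst3 (cystatin C) mostly outside cells and Cstb (stefin B) mostly in the cytoplasm. In the ovary, these proteases are known from follicle growth and ovulation, from atresia and from the regression of the corpus luteum.

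Many lysosomal genes carry the palindrome CACGTG near their start, the core of the site bound by TFEB and related factors. RefSeq promoter windows of 300 bases (250 before and 50 after a start, GRCm38.p6) matched 6 of the 9 genes, with no entry for Cstb, Ctsb and Ctsh. These 6 genes had 7 windows, 2 of them for Ctsa. CACGTG was in a window of 3 of these 6 genes, and in 7.15% of all 32851 windows. Here and for the other motifs, the members are counted per gene and the background per window, so the shares are not on the same unit. The longer palindrome TCACGTGA was in a window of 2 genes, Ctsa and Ctsd, and in 0.974% of all windows. The GC-rich motif GGGCGG, counted on both strands like the others, was in a window of 3 genes (Cst3, Ctsd and Ctsz) and in 35.7% of all windows. The windows with CACGTG, in capitals here, are shown beside that of Cst3, which lacks it and has GGGCGG in capitals instead.
Ctsa, chr2:164833523-164833822, plus strand: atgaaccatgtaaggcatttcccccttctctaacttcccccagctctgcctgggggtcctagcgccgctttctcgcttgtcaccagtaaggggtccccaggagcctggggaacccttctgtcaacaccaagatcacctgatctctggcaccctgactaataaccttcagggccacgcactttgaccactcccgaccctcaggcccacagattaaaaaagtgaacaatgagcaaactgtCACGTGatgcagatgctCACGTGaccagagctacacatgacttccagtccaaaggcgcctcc
Ctsd, chr7:142387778-142388077, minus strand: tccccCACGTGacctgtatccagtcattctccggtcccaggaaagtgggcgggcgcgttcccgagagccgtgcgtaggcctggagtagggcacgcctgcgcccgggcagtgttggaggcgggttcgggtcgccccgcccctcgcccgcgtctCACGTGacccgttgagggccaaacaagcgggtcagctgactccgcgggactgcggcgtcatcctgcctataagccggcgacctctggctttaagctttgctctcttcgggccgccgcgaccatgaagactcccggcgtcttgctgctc
Ctsl, chr13:64370471-64370770, minus strand: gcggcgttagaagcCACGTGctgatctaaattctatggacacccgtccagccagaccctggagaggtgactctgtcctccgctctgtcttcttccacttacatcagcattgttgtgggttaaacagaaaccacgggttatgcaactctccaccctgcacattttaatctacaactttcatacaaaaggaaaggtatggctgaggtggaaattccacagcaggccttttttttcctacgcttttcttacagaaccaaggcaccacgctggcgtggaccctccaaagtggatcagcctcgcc
Cst3, chr2:148875463-148875762, minus strand: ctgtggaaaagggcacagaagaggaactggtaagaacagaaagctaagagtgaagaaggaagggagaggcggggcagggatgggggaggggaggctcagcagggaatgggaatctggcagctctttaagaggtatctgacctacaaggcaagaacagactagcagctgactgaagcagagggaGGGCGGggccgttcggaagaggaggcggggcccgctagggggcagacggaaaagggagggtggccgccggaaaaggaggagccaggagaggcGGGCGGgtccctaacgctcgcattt
In the Ctsa window the palindromes began at -12 and 5 relative to the start, and both were the longer form. This start is the second of 2 listed for Ctsa, and the window of the first start held none of the motifs. In the Ctsd window they began at -245 and -98, the latter in the longer form, and the Ctsl window held 1 at -236. The Cst3 window had a GC content of 60.3% and its GGGCGG motifs began at -67 and 25. The Ctsk window, at 43.7% GC, held none of the 3 motifs. A motif match describes the letters of the window and is not a measurement of binding.

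The libraries held between 32158174 and 35485021 reads counted on genes. CNTR replicate 2 stood apart from the other 6 libraries. Its log2 levels rose by 0.31 for every 10% more GC in a transcript, against slopes of -0.13 to 0.04 in the other libraries. It was the highest library for 25.1% of all genes tested and for 29.9% of the 8788 tested genes with a transcript GC content between those of Ctsl (48.6%) and Ctsz (57.3%), the lowest and highest among the 9 genes. Among the 9 genes it was the highest library for 8 and the lowest for Ctsl. The ratios of the group means are therefore given with and without this library. Levels are TMM CPM, read counts scaled to library size by edgeR's TMM factors.

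**Figure D1:**
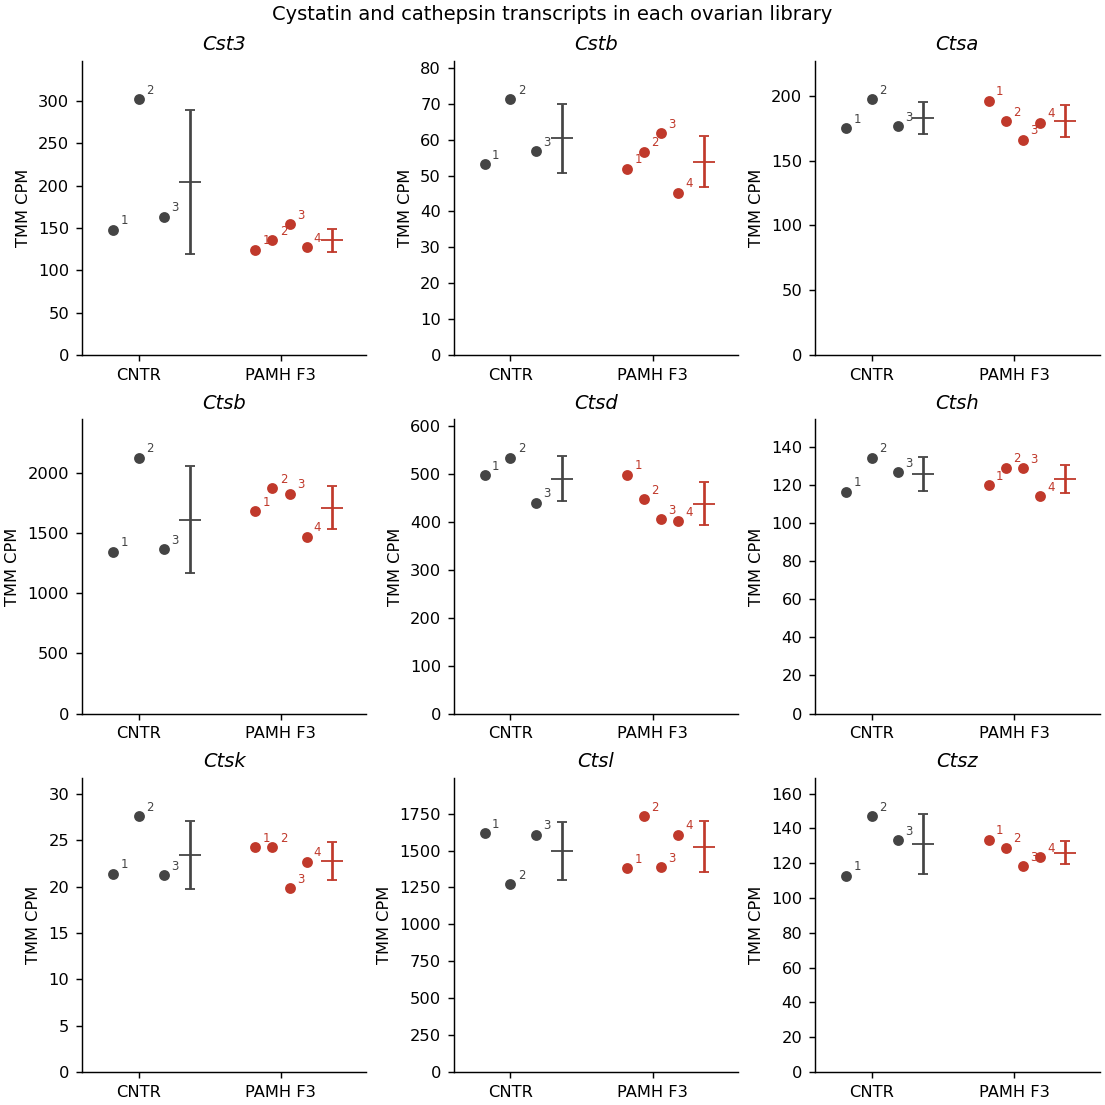
TMM CPM of the 9 genes in each library, with the replicate number beside each point and the group mean and SD as a bar, for 3 CNTR (gray) and 4 PAMH F3 (red) libraries on axes that start at 0. CNTR replicate 2 is the top point in every panel except Ctsl, where it is the lowest, and the groups overlap in all 9 panels.

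Cst3 (ENSMUSG00000027447, chr2:148871722-148875692, minus strand) encodes cystatin C, the secreted inhibitor. It was at 148, 302 and 164 CPM in CNTR replicates 1, 2 and 3. PAMH F3 replicates 1 to 4 were at 125, 136, 155 and 128 CPM. CNTR replicate 2 was thus far above any other library, and PAMH F3 replicate 3 lay above CNTR replicate 1, so the groups overlapped. The group means were 205 ± 84.6 CPM (SD, n = 3) for CNTR and 136 ± 13.6 CPM (SD, n = 4) for PAMH F3, a ratio of 0.664. Without CNTR replicate 2 the ratio was 0.871. The fitted log2 fold change, PAMH F3 against CNTR, was -0.34 ± 0.09 (SE) with the 2 surrogate variables that the model used as covariates for unwanted variation. It was -0.59 without surrogate variables and -0.43 when these were replaced by a correction for transcript GC and length. Leaving out CNTR replicate 2 gave -0.19, or -0.20 without surrogate variables. In whole ovary, fewer cells of a type and less RNA per cell cannot be told apart.

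The excess in CNTR replicate 2 was larger for Cst3 than for the other 8 genes. Its level there was 2.12 times the mean of the other 6 libraries. Among all genes tested, 1.58% reached this ratio, and 0.647% of the 11284 genes with a mean of at least 10 CPM did. Ctsz and Ctsa, whose transcripts have GC contents of 57.3% and 56.9% against 57.2% for Cst3, had ratios of 1.18 and 1.10. The part of transcript GC in the Cst3 excess was not tested. Among the 6 libraries without CNTR replicate 2, the highest Cst3 level was 1.31 times the lowest.

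Cst3 lies at the end of a row of cystatin genes on chromosome 2, after Cst12, Cst8, Cst13 and Cst9 (chr2:148789361-148838738). These neighbors did not share its profile. CNTR replicate 2 was the highest library for none of the 4. Cst8 was at 56.7, 52.9 and 42.5 CPM in CNTR and at 43.9, 30.3, 48.8 and 39.6 CPM in PAMH F3. Cst12 was between 20.4 and 24.8 CPM, and Cst13 and Cst9 were below 1 CPM in every library.

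Cstb (ENSMUSG00000005054, chr10:78425669-78427622, plus strand) encodes stefin B, the intracellular inhibitor. CNTR libraries were at 53.2, 71.2 and 56.8 CPM and PAMH F3 libraries at 52.0, 56.6, 61.7 and 45.3 CPM. CNTR replicate 2 was again highest, and PAMH F3 replicate 3 came next. The means were 60.4 ± 9.54 CPM (SD, n = 3) and 53.9 ± 7.001 CPM (SD, n = 4), with a fitted log2 fold change of -0.07 ± 0.07 (SE). Without CNTR replicate 2 the ratio of the means moved from 0.893 to 0.981. The 2 inhibitors therefore differed in their balance between libraries, with 4.24 Cst3 reads for each Cstb read in CNTR replicate 2, 2.79 and 2.88 in the other CNTR libraries and 2.40 to 2.82 in PAMH F3.

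Ctsb (ENSMUSG00000021939, chr14:63122462-63145923, plus strand) encodes cathepsin B, an abundant cysteine protease with endopeptidase and peptidyl-dipeptidase activity. Its level was 1345, 2126 and 1365 CPM in CNTR and 1680, 1872, 1828 and 1470 CPM in PAMH F3. The highest library and the 2 lowest libraries were all CNTR, with the 4 PAMH F3 libraries between them. The means of 1612 ± 445 CPM (SD, n = 3) and 1713 ± 181 CPM (SD, n = 4) gave a ratio of 1.06. Without CNTR replicate 2 the ratio was 1.26. The fitted log2 fold change was 0.23 ± 0.09 (SE), 0.09 without surrogate variables and 0.33 without CNTR replicate 2. It was 0.01 without CNTR replicate 1, so the size of this difference rested on which CNTR library was kept.

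Ctsl (ENSMUSG00000021477, chr13:64359337-64370890, minus strand) encodes cathepsin L, the other major endopeptidase of the family. CNTR libraries were at 1620, 1273 and 1607 CPM and PAMH F3 libraries at 1379, 1733, 1387 and 1609 CPM. Here CNTR replicate 2 was the lowest library. The means, 1500 ± 196 CPM (SD, n = 3) and 1527 ± 174 CPM (SD, n = 4), differed by less than either SD, and the fitted log2 fold change was -0.01 ± 0.11 (SE). Their ratio was 1.02, and 0.946 without CNTR replicate 2.

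Ctsb and Ctsl together made up 70.6% to 76.6% of the reads of the 9 genes in every library, without adjustment for length. Their sum varied less than the ratio of Ctsb to Ctsl. The sum ran from 2965 to 3605 CPM, and its CNTR mean of 3112 ± 249 CPM (SD, n = 3) lay within 1 SD of the PAMH F3 mean of 3239 ± 253 CPM (SD, n = 4). The ratio was 0.830, 1.67 and 0.849 in CNTR and 1.22, 1.08, 1.32 and 0.914 in PAMH F3. It was below 1 in the other 2 CNTR libraries and in PAMH F3 replicate 4, and highest in CNTR replicate 2.

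Set against their inhibitor, the 5 cysteine cathepsins (Ctsb, Ctsh, Ctsk, Ctsl and Ctsz) were counted in sum 21.7, 12.3 and 19.9 times as often as Cst3 in the CNTR libraries. In the PAMH F3 libraries this ratio was 26.8, 28.6, 22.5 and 26.1. All 4 PAMH F3 values lay above the 3 CNTR values, by a margin of 22.5 against 21.7 at the closest. The means were 17.95 ± 4.99 (SD, n = 3) and 26.0 ± 2.56 (SD, n = 4), and the CNTR mean without replicate 2 was 20.8. The ratio combines genes chosen with these values known, and its denominator Cst3 had the lowest fitted log2 fold change among them. For each of these genes alone, the groups overlapped. How often ratios of other genes separate the groups was not tested, so this separation is a description and supports no direction. The ratio concerns read counts, not molecules or activity.

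**Figure D2:**
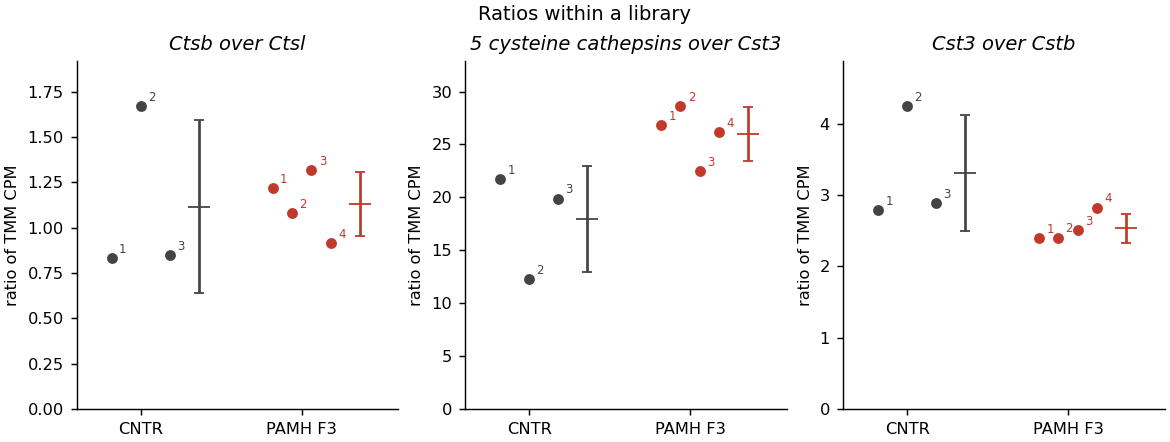
Ratios of TMM CPM within each library, from left to right Ctsb over Ctsl, the summed cysteine cathepsins over Cst3, and Cst3 over Cstb, with the replicate number beside each point and the group mean and SD as a bar. CNTR replicate 2 is an extreme point in each panel, at 1.67, 12.3 and 4.24.

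Ctsd (ENSMUSG00000007891, chr7:142375911-142388038, minus strand) encodes the aspartic protease cathepsin D. Its CNTR libraries were at 498, 534 and 440 CPM and its PAMH F3 libraries at 499, 448, 406 and 402 CPM. PAMH F3 replicates 3 and 4 were the lowest, and replicate 1 lay above CNTR replicates 1 and 3. The means were 491 ± 47.5 CPM (SD, n = 3) and 439 ± 45.3 CPM (SD, n = 4), and the fitted log2 fold change was -0.17 ± 0.10 (SE). Its ratio of means was 0.894, and 0.935 without CNTR replicate 2.

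Ctsa (ENSMUSG00000017760, chr2:164832873-164841032, plus strand) encodes the protective protein of neuraminidase and beta-galactosidase, itself a serine carboxypeptidase. It was at 175, 197 and 176 CPM in CNTR and at 196, 180, 166 and 179 CPM in PAMH F3. The means of 183 ± 12.5 CPM (SD, n = 3) and 180 ± 12.2 CPM (SD, n = 4) differed by less than either SD. Their ratio was 0.987, and 1.03 without CNTR replicate 2.

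The remaining cysteine proteases differed little between the groups. Ctsh (ENSMUSG00000032359, chr9:90054152-90076089, plus strand), an aminopeptidase, was at 116, 134 and 127 CPM in CNTR and at 120, 129, 129 and 114 CPM in PAMH F3. Ctsz (ENSMUSG00000016256, chr2:174427493-174439039, minus strand), a carboxypeptidase, was at 113, 147 and 133 CPM in CNTR and at 134, 129, 118 and 123 CPM in PAMH F3. Ctsk (ENSMUSG00000028111, chr3:95499256-95509362, plus strand), best known as the collagen-degrading protease of osteoclasts, was at 21.4, 27.6 and 21.2 CPM in CNTR and at 24.3, 24.2, 19.8 and 22.7 CPM in PAMH F3. Fitted log2 fold changes of these 3 genes were 0.01 each, with SEs of 0.06 for Ctsh, 0.08 for Ctsz and 0.13 for Ctsk. CNTR replicate 2 was the highest library for each, and PAMH F3 libraries lay on both sides of the CNTR mean. Ratios of the means were 0.978 for Ctsh, 0.961 for Ctsz and 0.972 for Ctsk, and 1.01, 1.02 and 1.07 without CNTR replicate 2.

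**Figure D3:**
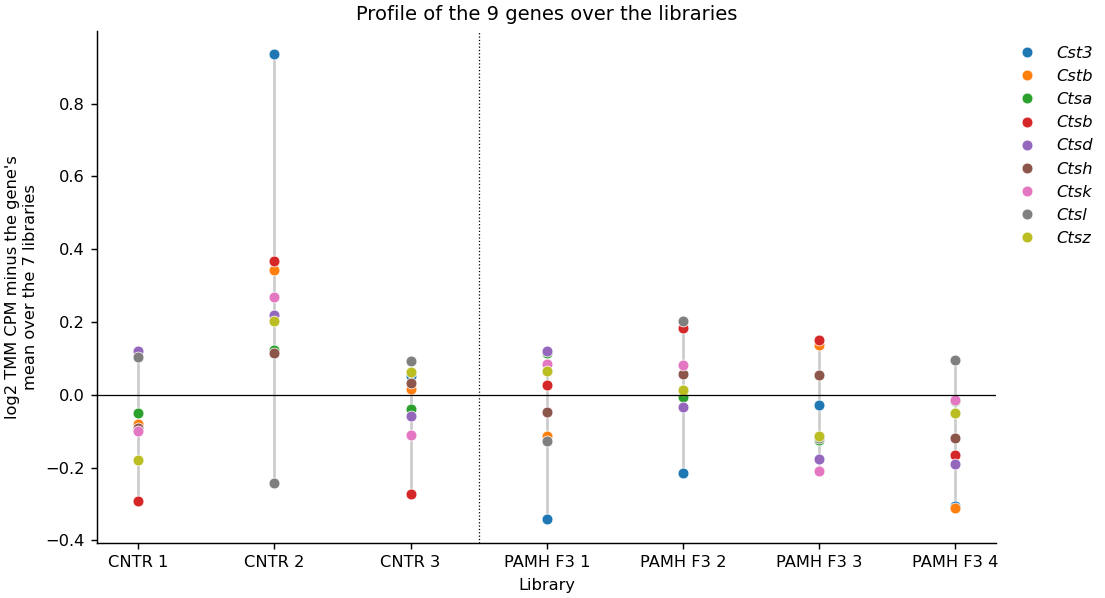
Log2 TMM CPM of each gene minus its own mean over the 7 libraries, by library, with CNTR to the left and PAMH F3 to the right of the dotted line. In CNTR replicate 2, 8 of the 9 genes are above 0 and Cst3 is farthest, while Ctsl is below 0.

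Over the 9 genes, the fitted log2 fold changes ran from -0.34 for Cst3 to 0.23 for Ctsb, with 4 above and 5 below 0 and a median of -0.00, against a median of 0.00 over all genes tested. The signs of Ctsa, Ctsh, Ctsk, Ctsl and Ctsz turned in at least 1 of the other settings tried. In edgeR's quasi-likelihood test, 0 of the 9 genes had a Benjamini-Hochberg adjusted p of at most 0.05, as did 0 of all 18779 genes (0%). An unadjusted p under 0.05 was found for 1435 of all genes (7.64%). Under DESeq2's Wald test, also with 2 surrogate variables, 0 of the 9 were called, and 0.583% of the genes with an adjusted p. With CNTR replicate 1 left out, edgeR called 1 of the 9, Cst3, and 0.204% of the genes then tested. None of the 9 had groups without overlap, while over all genes 2.40% had every PAMH F3 library below every CNTR library and 1.85% had every one above. Since the genes were chosen on this contrast, these counts describe them and support no direction.

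**Figure D4:**
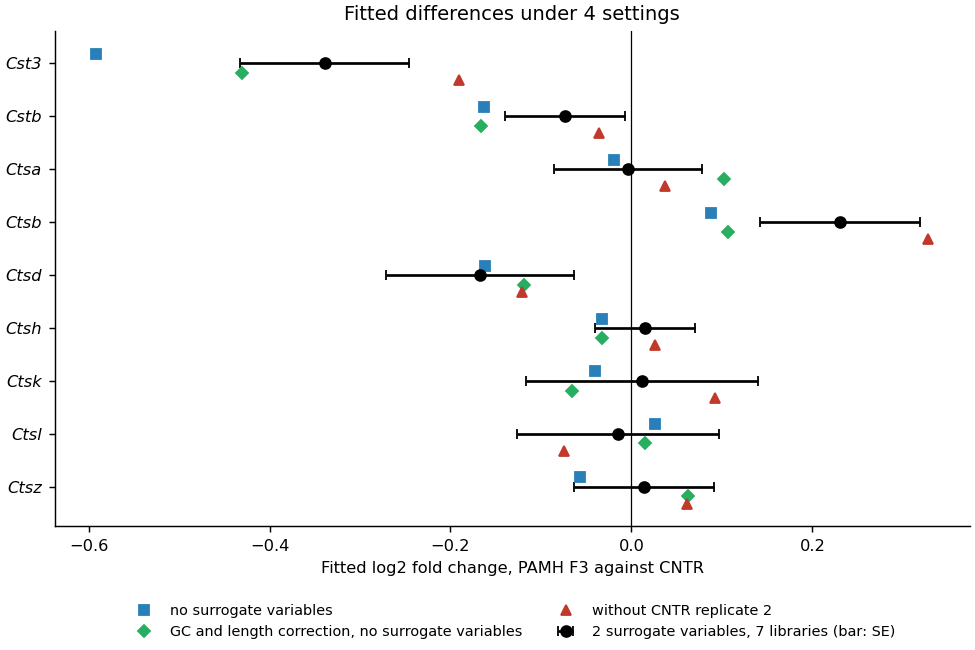
Fitted log2 fold change of PAMH F3 against CNTR for each gene under 4 settings, with the SE as a bar on the setting with 2 surrogate variables and no error drawn for the others. Cst3 is below 0 and Ctsb above 0 under all 4, over ranges of -0.59 to -0.19 and 0.09 to 0.33.

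To compare levels between genes, CPM were divided by the median length of a gene's annotated transcripts in kilobases. Mean levels over the 7 libraries were 2171 CPM per kb for Ctsl, 1316 for Ctsb, 274 for Ctsa, 240 for Ctsd, 218 for Cst3, 152 for Ctsh, 94.0 for Cstb, 88.9 for Ctsz and 15.2 for Ctsk. Ranges over the libraries did not overlap between Ctsl and Ctsb, Ctsb and Ctsa, Cst3 and Ctsh, Ctsh and Cstb, or Ctsz and Ctsk. Ctsa, Ctsd and Cst3 overlapped in this order, and so did Cstb and Ctsz, of which Cstb was higher in 5 of 7 libraries. The order depended on the transcript length used. With the longest annotated transcript, 6168 instead of 698 bases for Ctsl, Ctsb came first at 352 CPM per kb, Ctsl second at 246, then Ctsd at 217 and Cst3 at 192, while Ctsa moved to rank 7 at 49.8. Ctsk was last with either length.

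The relatives of the 9 genes in these families were also measured. Of 13 other cysteine cathepsins, 5 were tested and 8, all of the placental group on chromosome 13, had at most 3 counts in any library. Ctsf, Ctsc, Ctso and Ctss, the last an invariant chain protease of antigen-presenting cells, had means between 68.3 and 106 CPM in either group. Ctsw, known from cytotoxic lymphocytes, was between 1.14 and 2.10 CPM. No member of these 5 passed the test in either direction, with edgeR adjusted p values of at least 0.788. CNTR replicate 2 was the highest library for 1 of the 5, Ctsf, against 4 of the 5 cysteine cathepsins among the 9 genes. Ctss was at 70.7, 77.0 and 98.5 CPM in CNTR and at 93.3, 69.2, 45.3 and 65.4 CPM in PAMH F3, lowest in PAMH F3 replicate 3. Its fitted log2 fold change was -0.28 ± 0.20 (SE, edgeR adjusted p = 0.793). The other aspartic cathepsins tested were Napsa, at 15.8, 21.3 and 4.95 CPM in CNTR and 12.4 to 19.5 CPM in PAMH F3, and Ctse, near 1 CPM. Neither passed the test, and Ctsg, the serine protease of granulocytes, had at most 4 counts.

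Of 21 other stefins and cystatins, 9 were tested and none passed, with a median log2 fold change of -0.12. The stefin A genes that were matched, intracellular inhibitors like Cstb, had at most 2 counts in any library. Only uniquely aligned reads were counted, so reads that align equally well to several of these genes would be missing. This limit also holds for the placental cathepsins. Csta2 and Csta3 were not matched by symbol, so their levels are not known here. Fetub, a member of the fetuin branch that keeps the egg coat from hardening too early, was at 12.0, 10.0 and 14.2 CPM in CNTR. In PAMH F3 it was at 16.3, 15.03, 18.1 and 16.3 CPM, above all CNTR libraries. Its fitted log2 fold change of 0.44 ± 0.14 (SE) had an unadjusted p of 0.0137 and did not pass adjustment (edgeR adjusted p = 0.559). Cst8 had a log2 fold change of -0.35 ± 0.16 (SE, edgeR adjusted p = 0.673). Ahsg and Kng2 were at 0.909 to 2.35 CPM, and Cst6 and Cst7 at 0.251 to 1.32 CPM. Cst6, whose product inhibits cathepsins and legumain, averaged 1.64 CPM per kb of transcript, against 218 CPM per kb for Cst3.

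Among 44 other lysosomal hydrolases and activators, 43 were tested and 0 passed in either direction, with a median log2 fold change of 0.00. An unadjusted p under 0.05 was found for 4 lower and 1 higher of the 43, against 7.64% of all genes. PAMH F3 libraries lay below all CNTR libraries for 3 of the 43 and above for 0, against 2.40% and 1.85% of all genes. The 2 genes with the smallest p were Npc2, a cholesterol carrier of the lysosomal lumen, and Naglu, an enzyme of heparan sulfate breakdown. Npc2 was at 339, 350 and 315 CPM in CNTR and at 303, 252, 264 and 247 CPM in PAMH F3, without overlap. Its log2 fold change was -0.34 ± 0.09 (SE, edgeR adjusted p = 0.511). Naglu was at 69.5, 92.6 and 110 CPM in CNTR and at 89.1, 95.7, 96.3 and 111 CPM in PAMH F3, with a fitted log2 fold change of 0.24 ± 0.06 (SE, edgeR adjusted p = 0.512) and overlapping groups. This value was 0.11 without surrogate variables, and it turned to -0.046 without CNTR replicate 1. Psap and Asah1, a precursor of sphingolipid activators and acid ceramidase, were the most abundant of the list per kilobase, at 509 and 383 CPM per kb, and neither passed. This order rests on the median annotated transcript length, 2654 bases for Psap and 884 for Asah1, and no other length was tried.

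Lgmn and Gm2a were named after their values were seen. Lgmn encodes legumain, a protease that processes cathepsins B, H and L to their mature forms and is itself inhibited by cystatin C. It was at 376, 388 and 362 CPM in CNTR and at 356, 223, 162 and 232 CPM in PAMH F3. PAMH F3 replicate 1 lay close to the CNTR libraries and the other 3 well below them. The fitted log2 fold change was -0.71 ± 0.24 (SE), with an unadjusted p of 0.0194 and an edgeR adjusted p of 0.581. Gm2a, the activator of ganglioside breakdown, was at 776, 711 and 527 CPM in CNTR and at 606, 388, 288 and 389 CPM in PAMH F3. A log2 fold change of -0.80 ± 0.25 was fitted (SE, edgeR adjusted p = 0.556). PAMH F3 replicate 1 was again the highest of its group and replicate 3 the lowest. Smpd1, the third gene of the list without overlap, encodes acid sphingomyelinase and was at 42.4 to 54.6 CPM in CNTR and 40.3 to 42.2 CPM in PAMH F3.

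Within PAMH F3, Lgmn and Gm2a were highest in replicate 1 and lowest in replicate 3, and so were 4 of the 5 luteal markers, Ptgfr, Prlr, Cyp11a1 and Lhcgr. The other, Akr1c18, went the other way, at 277, 120, 557 and 360 CPM in PAMH F3. Ptgfr, shown after its values were seen, is the prostaglandin F receptor of luteal cells and was at 577, 516 and 883 CPM in CNTR and at 593, 302, 227 and 309 CPM in PAMH F3. The summed level of the 5 luteal markers ran from 5963 to 7939 CPM in CNTR and from 4349 to 6892 CPM in PAMH F3, with replicate 1 at the top of PAMH F3. Of these 5 markers, 0 passed the test, all 5 had a log2 fold change below 0, and 4 were lowest in PAMH F3 replicate 3. That library was the lowest for 14.1% of all genes tested. Macrophage markers summed to 598 to 661 CPM in CNTR and 441 to 710 CPM in PAMH F3, highest in replicate 1 and lowest in replicate 3. Lyz2 alone made up 367 CPM of the sum in replicate 1 and 172 CPM in replicate 3. PAMH F3 replicate 3 was the lowest library for 6 of the 10 markers, while Cd14 was highest there, at 15.2 CPM. Endothelial markers also had their highest PAMH F3 sum in replicate 1, at 206 CPM, and their lowest in replicate 3, at 134 CPM. No marker list besides these had both. The part of the luteal, macrophage and endothelial markers in the levels of the lysosomal genes was not tested. Among the 9 genes themselves, PAMH F3 replicate 3 was the lowest library for Ctsa and Ctsk only.

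**Figure D5:**
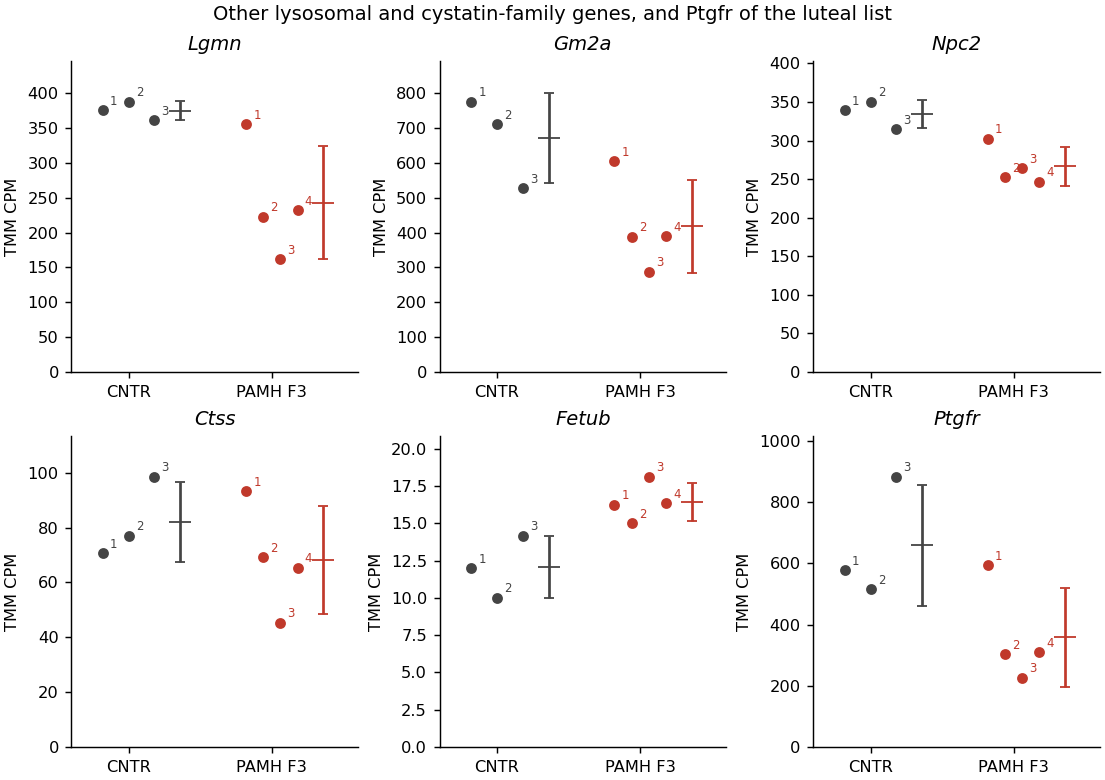
TMM CPM of Lgmn, Gm2a, Npc2, Ctss, Fetub and Ptgfr in each library, with the replicate number beside each point and the group mean and SD as a bar. PAMH F3 replicate 1 is the highest and replicate 3 the lowest of its group for Lgmn, Gm2a, Ctss and Ptgfr, and Fetub is higher in every PAMH F3 library than in any CNTR library.

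The membranes, the proton pump and the sorting receptors of the lysosome were also measured. Of 13 lysosomal membrane proteins, 15 subunits of the vacuolar proton pump and 7 sorting genes, all were tested and 0 passed in either direction. Their median log2 fold changes were -0.01, -0.04 and -0.01. Lamp1, the most used lysosomal membrane marker, was between 550 and 588 CPM in all 7 libraries. Cd63 and Mcoln1 had the smallest p of the membrane list, at log2 fold changes of -0.19 and 0.11, and Laptm4a was its most abundant gene per kilobase. Atp6v0e, a pump subunit, was at 104, 124 and 98.0 CPM in CNTR and at 90.1, 93.2, 98.5 and 81.4 CPM in PAMH F3. The fit gave it a log2 fold change of -0.21 ± 0.05 (SE, edgeR adjusted p = 0.511). Atp6v0a1 followed at 0.15, and Atp6ap1 and Atp6v1c1 were the most abundant subunits per kilobase. Among the sorting genes, Nagpa had the smallest p, and Lrp1 and Igf2r were the most abundant per kilobase. M6pr, a mannose 6-phosphate receptor that carries cathepsins to the lysosome, was at 215 to 219 CPM in CNTR and 222 to 229 CPM in PAMH F3, without overlap but with a log2 fold change of only 0.05 ± 0.05 (SE).

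The 4 regulators of lysosomal genes, whose products bind CACGTG palindromes, did not pass the test either. Tfeb was at 6.54, 14.3 and 8.29 CPM in CNTR and at 5.81, 5.36, 8.51 and 4.83 CPM in PAMH F3, and CNTR replicate 2 was far above the other libraries, as for Cst3. Its log2 fold change was -0.39 ± 0.16 (SE, edgeR adjusted p = 0.640), -0.66 without surrogate variables, -0.27 without CNTR replicate 2 and -0.83 without CNTR replicate 1. Mitf was at 13.3, 15.2 and 16.6 CPM in CNTR and at 16.6 to 17.7 CPM in PAMH F3 (log2 fold change 0.24 ± 0.08 SE, edgeR adjusted p = 0.599). Tfe3 was between 52.9 and 64.5 CPM and Tfec between 0.865 and 1.42 CPM. The 3 genes with CACGTG in a promoter window, Ctsa, Ctsd and Ctsl, had log2 fold changes of -0.00, -0.17 and -0.01, and CNTR replicate 2 was highest for Ctsa and Ctsd and lowest for Ctsl.

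Outside the family, the genes with the profiles closest to these were found by the root mean square difference of centered log2 CPM over the 7 libraries, among 11275 genes with a mean of at least 10 CPM. Closest to Cst3 were Tradd (0.07), Cox6a1 (0.07) and Ndufa6 (0.08), with transcript GC contents of 60.4%, 60.8% and 47.9%. Each shared the high CNTR replicate 2, as in Cox6a1 with 149 CPM there and 55.5 to 76.4 CPM elsewhere. Closest to Ctsb were Nrbp2 (0.05), B3gnt7 (0.05) and Il18bp (0.06), and closest to the mean profile of the 9 genes were Psmd8 (0.02), Bax (0.03) and Capzb (0.03). With genes of at least 1 CPM admitted, 1 of the 3 nearest to Cst3 remained, Tradd, and all 3 remained for Ctsb and for the mean profile.

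Signs of other cell types differed between libraries as well. Of 10 macrophage markers, 3 were highest in CNTR replicate 2. They were the complement genes C1qa, C1qb and C1qc, at 74.4, 97.6 and 67.1 CPM, against at most 56.5, 80.4 and 44.0 CPM in the other libraries. Adgre1, Csf1r, Cd68, Mrc1 and Lyz2 were highest in PAMH F3 replicate 1 instead, and Ptprc, at 13.7 CPM in CNTR replicate 2, was lowest there. The summed macrophage markers of that library, 661 CPM, were below the 710 CPM of PAMH F3 replicate 1. Col1a1, a collagen gene of stromal cells, was at 393 CPM in CNTR replicate 2 and at most 236 CPM elsewhere, as the only stromal marker of 4 to be highest there. Dcn and Lum, at 660 and 306 CPM in that library, were the lowest of the CNTR group, and the stromal sum of 1511 CPM lay between the other CNTR libraries. C1qa, C1qb, C1qc and Col1a1 were named after their values were seen. Their part in the high Cst3 and Ctsb of that library was not tested. Ovarian markers were present in every library, with summed granulosa markers between 2286 and 3492 CPM and oocyte markers between 279 and 450 CPM. Insl3, the hormone of theca cells, had at most 5 counts in a library. The theca list as a whole summed to 299 to 562 CPM in CNTR and 291 to 327 CPM in PAMH F3. Whether Insl3 overlaps another gene, so that its reads would be left uncounted, was not checked. Ovgp1, a secretory gene of the oviduct, was between 2394 and 6172 CPM. Theca, surface epithelium, endothelium, smooth muscle, adipocyte and red blood cell lists overlapped between the groups in their sums. The stromal sum did not, at 1485 to 1529 CPM in CNTR and 1126 to 1460 CPM in PAMH F3. For each of the 4 stromal markers alone, the groups overlapped. How often sums of other genes separate the groups was not tested, so this is a description and supports no direction.

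Several of the 9 genes overlap another gene. Libraries were made with a strand-marking kit, but whether strand was used in counting is not given in the sources used here. Ctsa overlaps Neurl2 and Pltp, Ctsb overlaps Fdft1, and Ctsz overlaps Nelfcd, all on the opposite strand. Their counts were at most 131 for Neurl2, 2879 for Pltp, 3484 for Fdft1 and 1642 for Nelfcd, in libraries where Ctsa had at least 5699 reads, Ctsb 44096 and Ctsz 3743. Ctsd and Ctsl overlap predicted genes on the same strand, over 6757 and 395 bases, and these had 0 counts. The methods name the union mode of HTSeq, in which a read on both genes is counted for neither. The 0 counts therefore cannot show whether Ctsd or Ctsl lost reads there.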

How the data were processed

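The authors made poly(A) libraries with a stranded kit, mapped reads to mm10 with STAR 2.5.3a and counted uniquely aligned reads per Ensembl gene with HTSeq 0.6.1p1, after bcl2fastq 2.17.1.14 (versions per the submitters' processing notes). The deposited values are raw counts per gene without normalization. The summary lines for reads not assigned to a gene held 45.8% to 47.5% of alignments and were left out. Of 55487 identifiers, 55394 were matched to GENCODE M21. The 9 genes and all gene lists were chosen with earlier results of these data known.

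Counts of the 18779 genes kept by filterByExpr (minimum count 10) were compared between 3 CNTR and 4 PAMH F3 libraries by the quasi-likelihood F test of edgeR (4.0.16, R 4.3.3) with TMM factors. The study's methods put unwanted variation found with sva into the model, so 2 surrogate variables from svaseq (sva 3.50.0, number by num.sv with 20 permutations and seed 1) were covariates, leaving 3 residual degrees of freedom. P values were adjusted over all genes tested (Benjamini-Hochberg, threshold 0.05). Each SE of a fitted log2 fold change is its absolute value divided by the square root of the F statistic. It takes the surrogate variables as given and is not the spread between libraries. An exact permutation test over the 7 libraries cannot give a two-sided p below 0.0286.

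Alternatives changed the surrogate variables (0, 1 or 3), the tool (DESeq2 1.42.0), the normalization, the filter, a GC content and length correction, a replicate block and which library was left out. A fit without CNTR replicate 2 and without surrogate variables, and levels per kilobase of the longest transcript, were chosen after seeing the data. Named genes were the 9, every tested gene of the cysteine cathepsin, cystatin and regulator lists, and from the other lysosomal lists, where no gene was called, the 2 with the smallest p and the 2 highest per kilobase. Marker lists are given as sums, with single markers only beside a result. Protein sequences were not used here.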

Additional observations from a re-analysis of the deposited data

Results flagged for a closer look

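Among the 59 genes named or shown, the 4 PAMH F3 libraries were checked for a library far from the other 3. It was found for 2 genes, and chance alone flags about 1 in 20 groups. Cst13, a gene of the cystatin row that ends with Cst3, was at 0.533 CPM in PAMH F3 replicate 4 and at 0.301 to 0.340 CPM in the others. Cst6, an inhibitor of cathepsins and legumain, was at 0.837 CPM in PAMH F3 replicate 3 and at 0.376 to 0.453 CPM in the others. None of the 9 genes was flagged. The CNTR group of 3 libraries is too small for this check.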

How the results depend on the processing

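With 0 genes called by edgeR with 2 surrogate variables, DESeq2 called 101 with the same surrogate variables and 6 without, and edgeR without a filter on low counts called 8. Leaving out 1 library gave between 0 and 39 calls, the largest counts being 39 without CNTR replicate 1 and 37 with PAMH F3 replicate 1 left out. Of the 9 genes, 0 to 1 were called when 1 library was left out. The 1 was Cst3 without CNTR replicate 1, at a log2 fold change of -0.72. As the 9 genes were selected on this contrast, that call is a description and supports no direction. Over the libraries left out, the fitted log2 fold change of Cst3 ran from -0.72 to -0.19, its log2 ratio of mean CPM from -0.78 to -0.20, and the fitted value of Ctsz from -0.16 to 0.068. The GC content and length correction moved Ctsa to 0.10. Other fitted values and ratios of mean CPM of the 9 genes moved by less than 1 SD between libraries. Levels per kilobase of Ctsa, Ctsb, Ctsh and Ctsl moved further with the longest transcript, for Ctsl from 2171 to 246 CPM per kb. No gene of the other lysosomal and cystatin lists was called under any setting run. Without 1 library, Napsa ran from -0.0093 (without CNTR replicate 3) to 0.67 and Naglu from -0.046 (without CNTR replicate 1) to 0.30. The cause of these changes was not tested.

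Replicate numbers are shared by the groups only as numbers, with correlations of 0.10, 0.10 and -0.25 between the deviations of same-numbered libraries. With the replicate block and no surrogate variables, 0 genes were called, and Cst3 was at -0.49 and Ctsb at 0.19. With 3 residual degrees of freedom, differences of the size seen for most of the 9 genes lay within the spread of the libraries. The depth of at least 32158174 counts did not limit these genes, the lowest count being 686 for Ctsk.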
